A study of Homo sapiens with 42 samples.

Results

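The genes described here encode the proteasome: its subunits, its assembly chaperones and its activators and inhibitor. They were taken as every gene whose symbol is PSMA, PSMB, PSMC, PSMD, PSME, PSMF or PSMG followed by digits, with all of its splicing events of every type. They gave 294 of the 78275 distinct events listed over 8 comparisons and 45 of the 11162 genes. PSMA8, PSMB7 and PSMB11 had no listed event, and 5 genes with similar symbols, such as the antisense gene PSMB8-AS1 and the gene PSMC3IP, were not counted.

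The proteasome is the protease that degrades proteins tagged with ubiquitin. Its barrel-shaped core is built from alpha subunits (PSMA genes) and beta subunits (PSMB genes), of which PSMB5, PSMB6 and PSMB7 carry the protease sites and PSMB8, PSMB9 and PSMB10 replace them in the immunoproteasome. A regulatory cap made of a base with ATPases (PSMC genes) and a lid (most PSMD genes) binds, unfolds and deubiquitinates substrates. The PSMG genes, PSMD9 and PSMD10 help assembly, while PSME1 to PSME4 encode alternative caps and PSMF1 an inhibitor. Myeloma cells secrete large amounts of antibody protein, and proteasome inhibitors such as bortezomib, which binds the PSMB5 site, are a main treatment of the disease.

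The data are 42 strand-specific mRNA libraries, in 14 groups of 3, from the human multiple myeloma lines MM.1S and INA-6. In the first 2 comparisons, cells of either line with IL-6, a growth factor of plasma cells, were set against the same line without it, both labelled 24 h. In the other 6, cells expressing Cas9 carried by lentivirus a guide RNA against POU2AF1 or ELL2 (in both lines) or against SRSF1 or HNRNPL (in MM.1S), each set against a guide to EGFP. All guide groups, controls included, received puromycin during 2 days as selection and IL-6 as well. The MM.1S guide groups are labelled 24 h, while the INA-6 guide groups carry no such time label. POU2AF1 encodes a transcription coactivator of B cells, ELL2 an elongation factor of plasma cells, and SRSF1 and HNRNPL encode RNA-binding proteins that regulate splicing. In INA-6 the POU2AF1 and ELL2 comparisons share their EGFP controls, and in MM.1S the SRSF1 and HNRNPL comparisons share theirs. The tables hold no expression values, so loss of each targeted gene was not checked here, and a guided population can hold edited and unedited cells. The labels do not say whether replicate libraries were grown separately, so p-values measure the spread between these libraries only.

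For each event the authors deposited a percent spliced in (PSI), the percentage of reads at a junction or intron that include the named exon, splice-site segment or intron, in each library. A difference is given in points, treated minus control. The SRSF1 and HNRNPL tables list events whatever their p. The other 6 tables list events with a deposited p under 0.05 (in INA-6 also events with the same PSI in every library), so a member missing from them was not necessarily unchanged. The deposited p is not adjusted for multiple tests. With 3 libraries against 3, events chosen by a p under 0.05 nearly always have groups that do not overlap. This held for 31 of 31 member intron listings so chosen after POU2AF1 targeting in INA-6 and 16 of 16 after SRSF1 targeting. Statements of no overlap below describe the values and are not further evidence. An event was called when its deposited p was under 0.05 and its mean moved by at least 10 points. In the complete tables limma was also fitted to the log odds of PSI over all events, with Benjamini-Hochberg adjustment. Depth per library is unknown. Among events listed for SRSF1 and HNRNPL targeting, both in MM.1S, plasma-cell markers were listed for 10 of 10 genes. This compares with 1 of 3 T-cell, 1 of 3 epithelial and 0 of 3 myeloid markers. A listing shows a splicing event with values, not an expression level, and INA-6 was not checked in this way. Sequencing was done by 1 of 2 providers, not given per library, so provider and group cannot be told apart.

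Some of the exons described below, and the retained intron that recurred in 4 comparisons, are shown here so that the region counted in each PSI can be read. The PSMD9 exon and the PSMC5 segment, which had larger differences than most of these, are not printed. Sequences are transcript sequences of GENCODE v29 on GRCh38, 5′ to 3′, in lower case. The skipped exons come first, from the assembly chaperone gene PSMG1 (PSMG1-201, chr21:39179924-39179986, minus strand), the core subunit gene PSMB3 (PSMB3-211, chr17:38760431-38760608, plus strand), the immunoproteasome gene PSMB9 (PSMB9-207, chr6:32857263-32857394, plus strand) and the ubiquitin receptor gene PSMD4 (PSMD4-201, chr1:151262161-151262301, plus strand).
PSMG1 exon: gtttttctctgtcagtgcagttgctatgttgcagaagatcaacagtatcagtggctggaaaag
PSMB3 exon: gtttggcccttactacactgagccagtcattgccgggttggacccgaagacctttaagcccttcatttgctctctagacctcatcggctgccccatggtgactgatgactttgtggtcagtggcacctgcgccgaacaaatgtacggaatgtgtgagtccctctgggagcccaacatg
PSMB9 exon: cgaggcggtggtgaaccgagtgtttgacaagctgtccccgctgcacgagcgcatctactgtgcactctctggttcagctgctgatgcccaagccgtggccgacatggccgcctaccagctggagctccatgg
PSMD4 exon: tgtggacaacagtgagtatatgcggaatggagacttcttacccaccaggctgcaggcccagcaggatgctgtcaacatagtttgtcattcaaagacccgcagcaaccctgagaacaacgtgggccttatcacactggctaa

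Further sequences show where a splice site or intron lies. A second PSMD4 exon (chr1:151266004-151266121, plus strand) ends at either of 2 donor sites, and its capitals mark the last 9 bases, which the shorter form lacks. The PSMB5 exon (PSMB5-205, chr14:23027745-23027829, minus strand) is included rarely. In PSMD11 (PSMD11-202, chr17:32480617-32480646, plus strand) the capitals mark the first 15 bases of the retained intron, which starts directly after the stop codon tag.
PSMD4 exon with alternative donor: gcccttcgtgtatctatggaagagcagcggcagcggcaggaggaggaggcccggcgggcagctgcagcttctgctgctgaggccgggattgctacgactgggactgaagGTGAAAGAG
PSMB5 exon: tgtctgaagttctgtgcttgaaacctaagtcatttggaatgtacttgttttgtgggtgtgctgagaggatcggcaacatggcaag
PSMD11 start of intron: aagaaactgacatagGTGAGTGCTGGCTTC

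The 4 cassette exons were searched on the transcript strand, overlaps allowed, for GAAGAA and GGAGA, purine-rich motifs like those SRSF1 binds, and for ACACA, a CA repeat like those HNRNPL binds. GGAGA occurred 1 time in the PSMD4 exon and no other match was found in the 4 exons. GGAGA was present in 28.3% of the 1204 coding internal exons of the same 141-nt length as the PSMD4 exon, and in 19.7% of the 975 exons of 63 nt, 34.7% of the 501 of 178 nt and 30.6% of the 1257 of 132 nt. GAAGAA was present in 8.41%, 19.4%, 15.6% and 15% of the exons as long as those of PSMG1, PSMB3, PSMB9 and PSMD4, and ACACA in 6.87%, 18.4%, 12.1% and 13%.

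Most alternative forms of proteasome transcripts were rare in these cells. Of the member events, 84.8% in the SRSF1 table and 85.5% in the HNRNPL table had a mean PSI under 5% in the EGFP controls, against 49.7% and 51.2% of all events. Only 9 member events in each table lay between 20% and 80% (3.52% and 3.63% of them), against 21.5% and 21.2% of all events. Retained introns outside overlapping regions made up 111 of the 256 member events in the SRSF1 table (43.4%, against 18.8% of all events). With those in overlapping regions, which later counts of retained introns include, they were 130 of 256, against 16238 of 62987. Skipped single exons made up 30 (11.7%, against 21.8%). The median difference regardless of sign was 0.19 points after SRSF1 targeting and 0.11 after HNRNPL targeting, where all events had medians of 1.39 and 0.97. The median SD between control libraries was also smaller, 0.173 and 0.175 points against 1.22 and 1.22. Differences of at least 10 points were seen in 0.391% and 0.806% of member events, against 10.1% and 5.33% of all events.

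**Figure D1:**
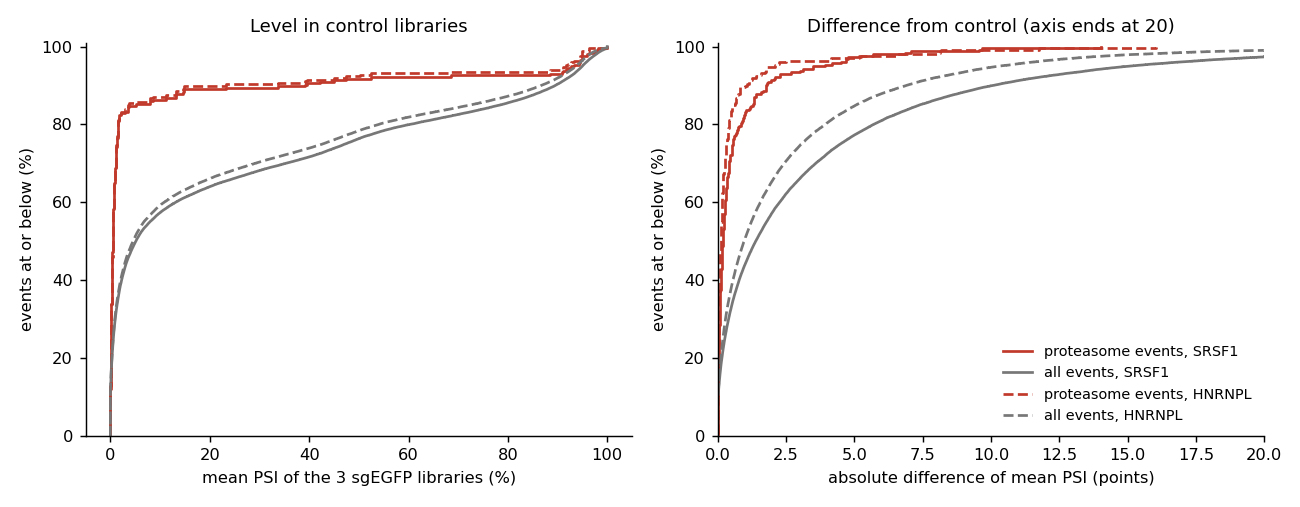
Cumulative share of events (y axis, percent) by mean control PSI and by size of the PSI difference (x axes, percent and points) for proteasome genes (red) and for all events (grey) of the SRSF1 (solid) and HNRNPL (dashed) tables. The proteasome curves climb earlier: 84.8% of the member events in the SRSF1 table lie under a control PSI of 5%, against 49.7% of all events.

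The share of member events with a deposited p under 0.05 matched the rest of the tables. It was 16.4% after SRSF1 targeting (40 of 244 events, in 22 genes), against 16.4% of all events, and 7.26% after HNRNPL targeting (17 of 234, in 13 genes), against 7.33%. Among events with a mean PSI from 5% to 95%, an alternative chosen after seeing the data, the member shares were higher: 14 of 32 (43.8%) against 21.9% for SRSF1, and 9 of 31 (29%) against 9.84% for HNRNPL. PSMC5 gave 4 of these events in each table from a single change. The median difference in that range was smaller for the members, 2.5 points against 4.5 after SRSF1 targeting and 1.41 against 3.01 after HNRNPL targeting.

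The core's alpha subunit genes had no difference above 1.75 points with a deposited p under 0.05 in any comparison. The largest difference with a deposited p under 0.05 was in PSMA5 after HNRNPL targeting, where an alternative acceptor segment was used at 0.258%, 0.347% and 0.166% in the controls and at 2.22%, 1.94% and 1.84% in the sgHNRNPL libraries. The groups did not overlap, and the segment stayed a minor form. In PSMA2 a 60-nt exon (chr7:42931096-42931155) that the tables mark as a nonsense-mediated decay exon was included at 1.62%, 2.25% and 2.43% in the controls and at 3.84%, 3.47% and 3.22% with sgSRSF1. The same PSMA2 exon went from 0.70%, 0.87% and 0.74% to 1.36%, 1.62% and 1.25% with IL-6 in MM.1S. A PSMA1 intron (chr11:14513888-14514402) was retained at 1.72%, 1.94% and 1.80% in INA-6 controls and at 3.19%, 3.71% and 3.42% with sgPOU2AF1. In these genes the treated libraries lay above all controls. A PSMA4 intron (chr15:78540464-78541904) stayed under 1% in every listed library and was lower with IL-6 in both lines and higher with sgPOU2AF1 in MM.1S.

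PSMB3, a structural beta subunit gene, included an exon less often after SRSF1 targeting. Its 178-nt exon, the fourth of 6 in PSMB3-211 and shown above, was included at 95.7%, 96.0% and 96.1% in the controls and at 90.44%, 90.41% and 91.26% with sgSRSF1. Every sgSRSF1 library was lower than every control. It fell by 5.26 points, a log2 odds change of -1.29 (SE 0.15, n = 3 and 3) with an adjusted p of 0.0132 by limma. Without the first sgSRSF1 library the difference was -5.13 points and the adjusted p by limma 0.0512, while the other leave-outs gave 0.0421 to 0.0487. The length is not a multiple of 3, and an annotated transcript without the exon is classed as a nonsense-mediated decay transcript. The exon is not listed in the HNRNPL table. In PSMB4, another structural beta subunit gene, an intron (chr1:151400846-151401238) went from 2.04%, 1.69% and 2.37% to 2.52%, 2.98% and 2.98% with sgPOU2AF1 in MM.1S.

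PSMB5, the gene of the chymotrypsin-like site that bortezomib binds, showed 1 event that went the same way with IL-6 in both lines. Its 85-nt exon, shown above and the third of 4 in PSMB5-205, was included at 2.27%, 1.91% and 1.38% without IL-6 and at 2.80%, 3.59% and 2.92% with it in MM.1S. In INA-6 it was included at 1.92%, 3.13% and 2.36% without IL-6 and at 4.72%, 4.98% and 3.59% with it. The groups did not overlap in either line, and most PSMB5 transcripts left the exon out in all 12 libraries. Of the 2 events of PSMB5 and the 2 of PSMB6 listed after SRSF1 and after HNRNPL targeting, 0 had a deposited p under 0.05. Of all events, 16.4% and 7.33% had one. An intron of PSMB6, the gene of the caspase-like site, was retained at 0.322%, 0.432% and 0.361% in INA-6 controls and at 0.499%, 0.667% and 0.560% with sgPOU2AF1.

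The immunoproteasome genes had events with a deposited p under 0.05 with IL-6 in MM.1S, sgPOU2AF1 in both lines and sgELL2 in INA-6. Events were listed there because of that p. They had no listed event with IL-6 in INA-6 or sgELL2 in MM.1S. After SRSF1 and after HNRNPL targeting, 0 of the 12 events of PSMB8, PSMB9 and PSMB10 had one, against 16.4% and 7.33% of all events. The difference between these comparisons was not tested. The 132-nt PSMB9 exon shown above was included at 95.37%, 94.99% and 94.10% without IL-6 in MM.1S and at 88.9%, 89.7% and 90.1% with it. Its mean was 5.24 points lower with IL-6. With sgPOU2AF1 in MM.1S, all of whose groups received IL-6, the same exon went from 91.5%, 91.7% and 91.2% to 93.5%, 93.6% and 94.2%. All treated libraries lay outside the range of their controls in both comparisons. A PSMB10 intron (chr16:67935479-67935581) was retained at 4.90%, 4.41% and 5.71% in the MM.1S controls and at 2.81%, 3.15% and 3.95% with sgPOU2AF1. In INA-6 the same PSMB10 intron went the other way, from 1.59%, 1.88% and 1.93% to 3.15%, 3.82% and 3.92%. PSMB8 had 4 listed intron events that were higher with sgPOU2AF1 in INA-6, among them chr6:32842784-32842941, which went from 1.41%, 1.06% and 1.39% to 1.73%, 2.06% and 1.89%. They are overlapping listings of introns 1 and 2 with different bounds, so they are not 4 separate introns.

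Of the ATPase genes of the base, PSMC5 had the only called event with a higher PSI among all members. Near its 5′ end the segment chr17:63827515-63827923, an alternative donor region at a transcription start, was included at 26.1%, 23.1% and 20.6% in the EGFP controls of MM.1S and at 32.8%, 34.0% and 38.3% with sgHNRNPL. The sgHNRNPL libraries were all above the controls, by 11.8 points on average, with a p of 0.0069 in the authors' deposited table. The call did not hold without the second control library (11.7 points) or without the second sgHNRNPL library (12.3 points), since the p then passed 0.05, and limma gave an adjusted p of 0.230. With sgSRSF1 the same segment was at 30.50%, 30.45% and 30.03%, 7.07 points above the shared controls (adjusted p by limma 0.154). The sgSRSF1 and sgHNRNPL libraries themselves differed by -4.70 points (log2 odds -0.31, SE 0.17, adjusted p by limma 0.327). In INA-6 the PSMC5 segment was lower, at 5.59%, 4.61% and 5.64% in the EGFP controls, at 10.2%, 11.2% and 9.35% with sgPOU2AF1 and at 7.78%, 7.78% and 6.95% with sgELL2. The tables list 3 more exons inside the segment with parallel values, so these are 1 change listed 4 times. An intron of PSMC2 (chr7:103362089-103362694), also an ATPase gene, was retained at 1.59%, 1.84% and 1.90% in the MM.1S controls and at 1.10%, 1.13% and 1.26% with sgELL2.

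PSMC3, another ATPase gene, had the largest difference after ELL2 targeting. An alternative donor segment at its start (chr11:47426117-47426204) went from 23.0%, 25.0% and 23.2% in the INA-6 controls to 31.5%, 29.8% and 28.6% with sgELL2, 6.23 points higher with no overlap. It was not listed for sgELL2 in MM.1S, where the largest member difference was 0.68 points, in an acceptor segment of the activator gene PSME2 that went from 1.43%, 1.25% and 1.43% to 2.32%, 1.78% and 2.06%.

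In the non-ATPase part of the base, PSMD4, which encodes a ubiquitin receptor, had events at the exons shown above. Its 141-nt exon was included at 97.7%, 97.4% and 98.1% in the controls and at 92.9%, 94.3% and 94.2% with sgSRSF1. It fell by 3.92 points (log2 odds -1.51, SE 0.21, adjusted p by limma 0.0184), with every treated library below every control. Leaving out the second control library kept the call, with 0.0447 by limma; leaving out any other library gave adjusted p values of 0.0529 to 0.0616 by limma and differences of -3.50 to -4.16 points. With PSI held between 5% and 95% the adjusted p by limma was 0.22, and with a trended, robust spread it was 0.0531. The longer donor of the other PSMD4 exon, which adds the 9 capital bases, was used at 7.70%, 7.74% and 8.33% in the controls and at 6.01%, 6.28% and 6.14% with sgSRSF1. With IL-6 in MM.1S its use went from 6.62%, 7.43% and 6.98% to 8.99%, 8.03% and 8.87%. With sgPOU2AF1 in INA-6 it went from 8.84%, 9.48% and 9.82% to 10.99%, 10.23% and 11.43%. PSMD1, the scaffold gene of the base, included its 87-nt exon 22 of 25 at 97.99%, 97.89% and 97.78% without IL-6 and at 95.1%, 94.5% and 95.8% with it in MM.1S.

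The lid gene PSMD11 held 1 of the 6 member events with a deposited p under 0.05 in 4 comparisons, a 121-nt intron directly after the stop codon (chr17:32480632-32480752). It was retained at 7.70%, 7.88% and 8.36% in the MM.1S EGFP controls, at 17.8%, 17.7% and 17.1% with sgSRSF1 and at 7.57%, 7.11% and 7.67% with sgHNRNPL. The sgSRSF1 libraries stood apart from the other 6, and the sgHNRNPL libraries lay just below the controls. Retention rose by 9.56 points with sgSRSF1 (log2 odds 1.30, SE 0.15, adjusted p by limma 0.0122), and the call held without each library in turn. In INA-6 the PSMD11 intron went from 4.55%, 5.67% and 5.16% without IL-6 to 2.62%, 2.37% and 3.50% with it. With EGFP guides and IL-6 it was at 3.92%, 3.95% and 3.48% in INA-6, at 6.14%, 8.06% and 8.58% with sgPOU2AF1 and at 5.72%, 5.28% and 5.37% with sgELL2. The treated libraries lay outside the control range in each of these comparisons, HNRNPL targeting included, where the event had no deposited p under 0.05.

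The PSMD11 segment that follows that intron, an alternative acceptor region (chr17:32480753-32481310), was used at 95.3%, 93.7% and 94.5% in the controls and at 86.3%, 89.7% and 90.3% with sgSRSF1. It fell by 5.68 points (log2 odds -1.10, SE 0.23, adjusted p by limma 0.0483), and without each library in turn the adjusted p by limma was 0.0872 to 0.122, without the logit 0.0694 and with a trended, robust spread 0.083. It borders the retained intron, so the 2 events share reads. With sgPOU2AF1 in INA-6 the segment went from 95.6%, 96.8% and 95.5% to 93.7%, 94.3% and 93.4%.

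Apart from a PSMD7 region, the events named here in other lid genes were at low levels. PSMD14, the deubiquitinase gene of the lid, used a 113-nt donor segment (chr2:161318874-161318986) at 0.964%, 0.535% and 0.818% in the controls and at 2.17%, 2.44% and 2.96% with sgSRSF1. It rose by 1.75 points (log2 odds 1.35, SE 0.18, adjusted p by limma 0.0176). The call held without the first or the third sgSRSF1 library, while leaving out any of the other 4 gave adjusted p values by limma of 0.0552 to 0.0587 and rises of 1.63 to 1.85 points. Without the logit it was 0.0509 by limma. A PSMD13 intron (chr11:248856-248931) was retained at 0.845%, 1.32% and 1.10% in the controls and at 2.90%, 3.12% and 2.20% with sgSRSF1. It rose by 1.65 points (log2 odds 1.28, SE 0.22, adjusted p by limma 0.0300). Leaving out each library gave adjusted p values of 0.0502 to 0.0923 by limma, and the fit without the logit 0.0732. PSMD7, a lid scaffold gene, had a region inside its last exon (chr16:74305572-74306254) counted as a retained intron, listed 2 times with nearly the same bounds. Its PSI went from 32.5%, 35.2% and 30.6% without IL-6 to 28.3%, 26.4% and 26.4% with it in MM.1S, the largest member difference of that comparison. An intron of the lid gene PSMD3 (chr17:39989930-39990093) had a deposited p under 0.05 in 3 comparisons and was higher in each: it went from 0.146%, 0.230% and 0.368% to 0.797%, 1.13% and 0.936% with sgSRSF1 and to 0.624%, 0.416% and 0.667% with sgHNRNPL. With sgPOU2AF1 in INA-6 it went from 0.0482%, 0.0515% and 0.179% to 0.363%, 0.247% and 0.280%. An intron of the lid gene PSMD8 (chr19:38382238-38383252) went from 0.808%, 0.750% and 0.898% to 1.28%, 1.47% and 1.11% with sgPOU2AF1 in MM.1S, and from 0.893%, 0.695% and 0.734% to 0.339%, 0.403% and 0.566% with sgELL2 in INA-6. A multi-exon event of PSMD12, a lid scaffold gene (chr17:67362776-67362892), was at 1.08%, 1.31% and 1.16% in the controls and at 0.656%, 0.762% and 0.354% with sgPOU2AF1 in MM.1S. In all, 13 of the 51 lid events had a deposited p under 0.05 after SRSF1 targeting, 7 higher and 6 lower, in 6 of the 8 lid genes, where 16.4% of all events had one and 40.7% of those were higher.

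**Figure D2:**
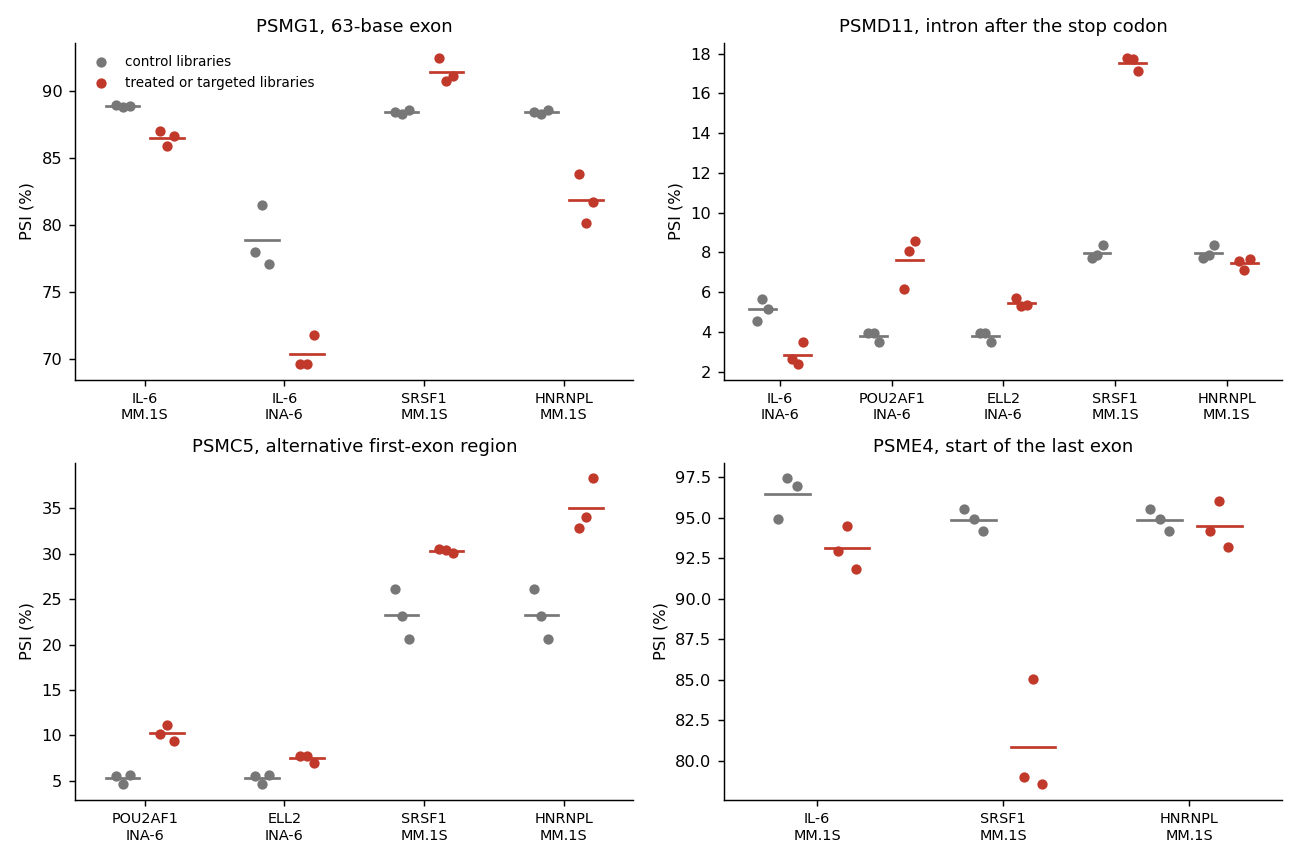
PSI (y axis, percent) in every library, by group, for the PSMG1 exon, the PSMD11 intron, the PSMC5 segment and the PSME4 acceptor segment, in the comparisons that list them; each point is 1 library, grey for control and red for treated, and lines are group means. The sgSRSF1 libraries of the PSMD11 intron lie between 17.1% and 17.8%, above all others, and those of the PSME4 segment between 78.54% and 85.01%, below their controls.

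Among the assembly genes, PSMG1, whose product pairs alpha subunits early in core assembly, had an exon with a deposited p under 0.05 in 4 comparisons. Its 63-nt exon, shown above, was included at 89.0%, 88.9% and 88.9% without IL-6 in MM.1S and at 87.0%, 85.9% and 86.6% with it. In INA-6 inclusion went from 78.0%, 81.5% and 77.1% to 69.6%, 69.7% and 71.8% with IL-6, 8.51 points lower and the largest member difference of that comparison. In the EGFP controls of MM.1S the PSMG1 exon was at 88.5%, 88.3% and 88.6%. With sgSRSF1 it was at 92.5%, 90.8% and 91.2%, above all controls, and with sgHNRNPL at 83.8%, 80.2% and 81.7%, below all controls. Against the controls alone neither passed in limma, with adjusted p values of 0.153 and 0.209. The exon holds 63 nt, a multiple of 3.

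PSMD10, the assembly chaperone also known as gankyrin, used the 79-nt end of an exon (chrX:108087686-108087764) at 93.0%, 91.3% and 92.1% in the controls and at 96.6%, 97.4% and 97.9% with sgHNRNPL, with an adjusted p of 0.0871 by limma. With IL-6 in INA-6 the segment went from 89.7%, 88.3% and 89.0% to 90.2%, 91.0% and 90.5%. PSMD9, another assembly chaperone gene, had a multi-exon event at a 103-nt exon (chr12:121894739-121894841). Its inclusion was 100%, 92.7% and 96.2% in the controls and 85.1%, 87.2% and 87.6% with sgSRSF1. The PSMD9 difference was -9.69 points and was not called by limma. By the deposited kind of test it kept a p under 0.05 in 2 leave-outs and lost it in 4. A 117-nt exon of PSMG4, whose product helps alpha ring assembly, went from 22.6%, 23.7% and 20.9% in the INA-6 controls to 19.3%, 19.5% and 17.6% with sgPOU2AF1. None of these groups overlapped with its controls, which the choice of these events by p nearly forces.

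The activator gene PSME4, which encodes the single-chain cap PA200, had the only called event after SRSF1 targeting. A 421-nt segment at the start of its last exon (chr2:53865153-53865573), downstream of the stop codon in the exon before, was used at 95.5%, 94.9% and 94.2% in the controls and at 78.98%, 85.01% and 78.54% with sgSRSF1. All sgSRSF1 libraries were lower than all controls. Its use fell by 14.04 points (log2 odds -2.13, SE 0.25, adjusted p by limma 0.0122), and in limma the call held without each library. By the deposited kind of test alone it did not hold without the first sgSRSF1 library (-13.1 points) or without the third (-12.9 points). With IL-6 in MM.1S the PSME4 segment went from 94.9%, 97.4% and 97.0% to 93.0%, 94.5% and 91.8%. A 13-nt donor segment of PSME4 (chr2:53869364-53869376) was used at 11.8%, 10.5% and 11.4% in the controls, at 15.5%, 16.9% and 14.8% with sgSRSF1 and at 13.3%, 14.2% and 13.7% with sgHNRNPL. It went from 9.46%, 8.33% and 9.87% to 7.57%, 7.29% and 6.86% with IL-6 in INA-6.

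PSMF1, the inhibitor gene, has last exons that begin at different acceptors and end in different stop codons. The segment chr20:1165029-1166226 was used at 92.0%, 91.8% and 88.9% in the controls and at 94.8%, 95.6% and 94.9% with sgHNRNPL (adjusted p by limma 0.212). With IL-6 in MM.1S it went from 92.0%, 91.1% and 90.3% to 94.2%, 92.7% and 92.7%. The introns of PSME1, PSME2 and PSME3, genes of the cap that interferon induces and its relative, differed by less than 1 point wherever their deposited p was under 0.05. A PSME3 intron (chr17:42833674-42833775) went from 1.15%, 0.912% and 1.11% to 1.64%, 1.45% and 1.28% with IL-6 in MM.1S. It was lower with sgPOU2AF1 in MM.1S, at 1.77%, 1.55% and 1.68% against 1.23%, 1.12% and 0.906%. With sgSRSF1 it was lower too, at 1.62%, 1.90% and 1.62% against 0.902%, 1.20% and 0.895%.

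By the call rule, 0 member events were called with IL-6 in either line or after POU2AF1 or ELL2 targeting in either line. Of all listed events with a p, 13.9% were called with IL-6 in MM.1S, 12.2% with IL-6 in INA-6, 10.2% with sgPOU2AF1 in MM.1S, 10.1% with it in INA-6, 11% with sgELL2 in MM.1S and 10.2% with it in INA-6. All member events with a p in these 6 tables had one under 0.05, since that chose the rows: 23, 16, 23, 40, 10 and 18 events. Their median difference regardless of sign was 0.57, 0.24, 0.37, 0.435, 0.245 and 0.565 points, where all listed events had medians from 2.6 to 3.65. Of the members, 1 was called after SRSF1 targeting (the PSME4 segment, background 5.75%) and 1 after HNRNPL targeting (the PSMC5 segment, background 1.81%).

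The direction of the events with a deposited p under 0.05 differed between comparisons. With IL-6, 14 of 23 member events were higher in MM.1S (60.9%, against 47.4% of all events) and 4 of 16 in INA-6 (25%, against 58.7%). With sgPOU2AF1, 16 of 23 were higher in MM.1S (69.6%, against 60.5%) and 36 of 40 in INA-6 (90%, against 68.6%). With sgELL2 the counts were 7 of 10 in MM.1S (70%, against 50.2%) and 12 of 18 in INA-6 (66.7%, against 52.9%). With sgSRSF1, 23 of 40 were higher (57.5%, against 40.7%), and with sgHNRNPL 13 of 17 (76.5%, against 57.3%). Many of these events share a gene or a region, so they are not independent.

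**Figure D3:**
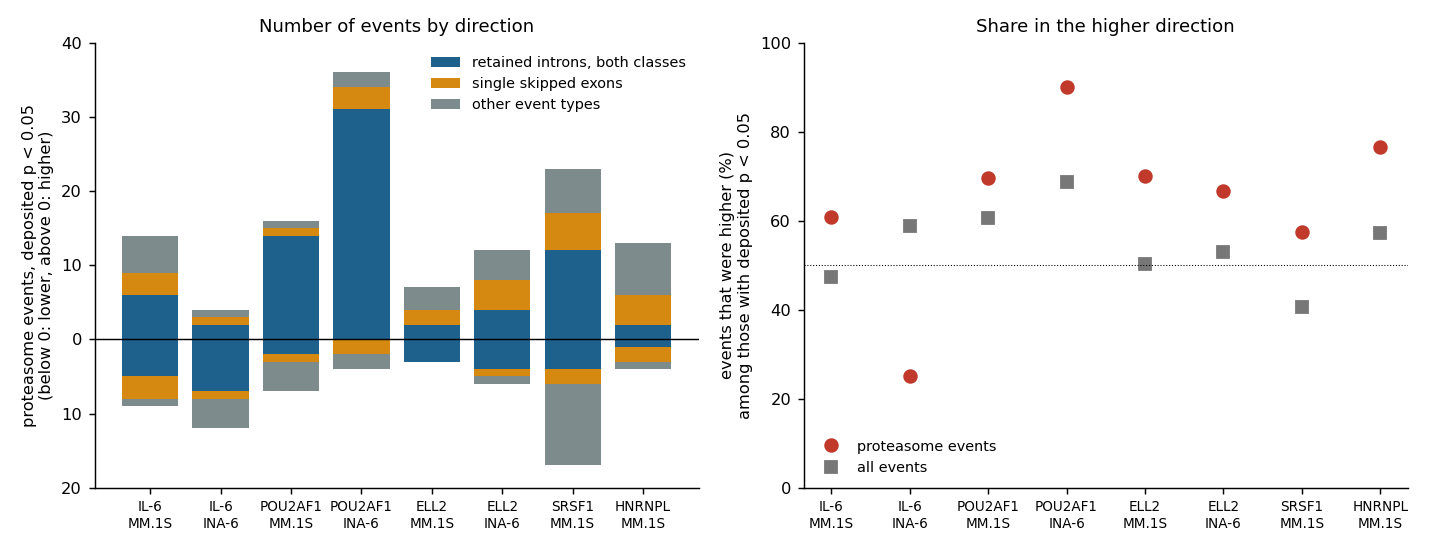
Numbers of proteasome events with a deposited p under 0.05 that were higher (above 0) or lower (below 0) in the treated group for the 8 comparisons, coloured by event type (left), and the percentage higher for proteasome events and all events (right). POU2AF1 targeting in INA-6 has 36 higher and 4 lower events, and IL-6 in INA-6 has 4 higher and 12 lower.

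Among POU2AF1 member events with a deposited p under 0.05, retained introns made up 31 of 40 in INA-6 and 16 of 23 in MM.1S. Of all such events they were 3775 of 7256 and 1504 of 4151. Of the member events listed after SRSF1 targeting at any p they were 130 of 256. Introns are counted here as listed. Some listings overlap with different bounds, as in PSMC5, PSMA4, PSMD2 and PSMB8 in INA-6 and in PSMC5, PSMD6, PSMD8 and PSMD13 in MM.1S. Separate introns were therefore fewer. In INA-6 all 31 listed member introns with a deposited p under 0.05 were higher with sgPOU2AF1, in 14 genes from PSMA4 and PSMB8 to PSMD2 and PSME2. Of all such introns listed, 91.9% were higher, so the members went the way of introns in general there. Their control means were under 2% in 30 of 31, the median difference was 0.345 points, and the ratio of group means ran from 1.18 to 3.33 with a median of 1.83. The exception in level was the PSMD11 intron described above. In MM.1S 14 of 16 were higher, against 73.4% of all such introns; the PSMB10 intron and a PSME3 intron were lower. An intron of the lid gene PSMD6 (chr3:64022524-64023274) went from 1.67%, 1.85% and 1.87% to 2.14%, 2.59% and 2.62% there. With sgSRSF1 12 of 16 member introns were higher (75%, against 77.4% of all). The member shares after SRSF1 targeting were thus near those of all introns. With IL-6 the introns with a deposited p under 0.05 were 6 higher and 5 lower in MM.1S (62.1% of all such introns were higher) and 2 higher and 7 lower in INA-6 (58.2% of all were higher). Whether retained introns lie in nuclear pre-mRNA or in mature transcripts was not measured.

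**Figure D4:**
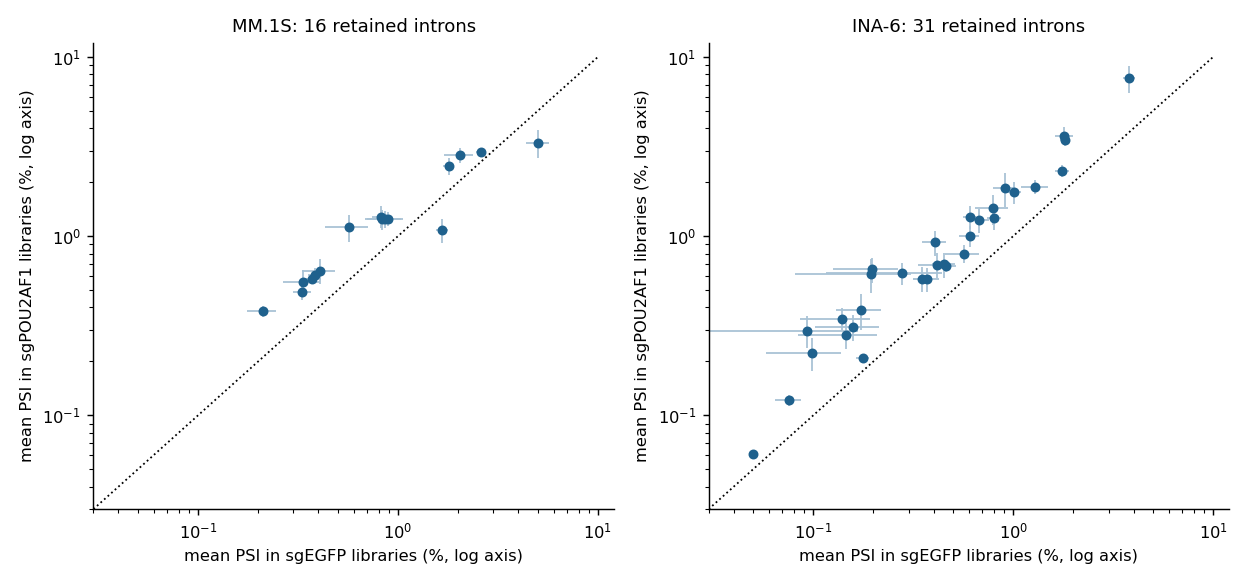
Mean PSI of each listed retained intron with a deposited p under 0.05, with bars of 1 SD over 3 libraries. The axes give EGFP controls (x axis, percent, log scale) and sgPOU2AF1 (y axis, percent, log scale), for 16 listings in MM.1S and 31 in INA-6. Some listings overlap. All 31 INA-6 points lie above the line of equality, and 14 of 16 do in MM.1S.

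Over all events, limma called 7 of the 123 member events it could test after SRSF1 targeting (5.69%, against 8.21% of all events), 3 higher and 4 lower, all described above. Without adjustment 19 had a p under 0.05. Among events of mean PSI from 5% to 95%, 4 of 32 were called, against 11.2% of all. After HNRNPL targeting limma called 0 of 104 member events, 10 had an unadjusted p under 0.05, and 0.381% of all events were called; the deposited test had 17 under 0.05.

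Setting the sgSRSF1 libraries directly against the sgHNRNPL libraries, limma called 9 of 112 member events (8.04%, against 11.1% of all), 5 with a higher and 4 with a lower PSI under sgSRSF1. The PSMD11 intron was 10.1 points higher with sgSRSF1 than with sgHNRNPL (log2 odds 1.40, SE 0.13, adjusted p by limma 0.000842). The PSMG1 exon was 9.56 points higher (log2 odds 1.25, SE 0.16, adjusted p by limma 0.00318). The PSMD14 donor segment was 2.03 points higher (adjusted p by limma 0.00207) and the PSMD13 intron 1.65 points higher (0.00903 by limma). The PSME4 segment differed by -13.6 points (log2 odds -2.03, SE 0.27, adjusted p by limma 0.0039). These 5 calls held without each of the 9 libraries in turn.

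The other 4 calls did not hold without each library. The PSMD10 segment differed by -3.10 points (adjusted p by limma 0.0213, and 0.0245 to 0.0639 over the leave-outs, of which 5 of 9 kept the call). The PSMA2 decay exon was 1.51 points higher with sgSRSF1 (0.0301 by limma, and 0.0178 to 0.0912, kept in 3 of 9). The PSMD11 acceptor segment differed by -4.61 points (0.0461 by limma, and 0.0558 to 0.127, kept in 0 of 9). The PSMF1 segment differed by -3.17 points (0.0473 by limma, 0.0836 without the logit, and 0.0338 to 0.135 over the leave-outs, kept in 1 of 9).

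**Figure D5:**
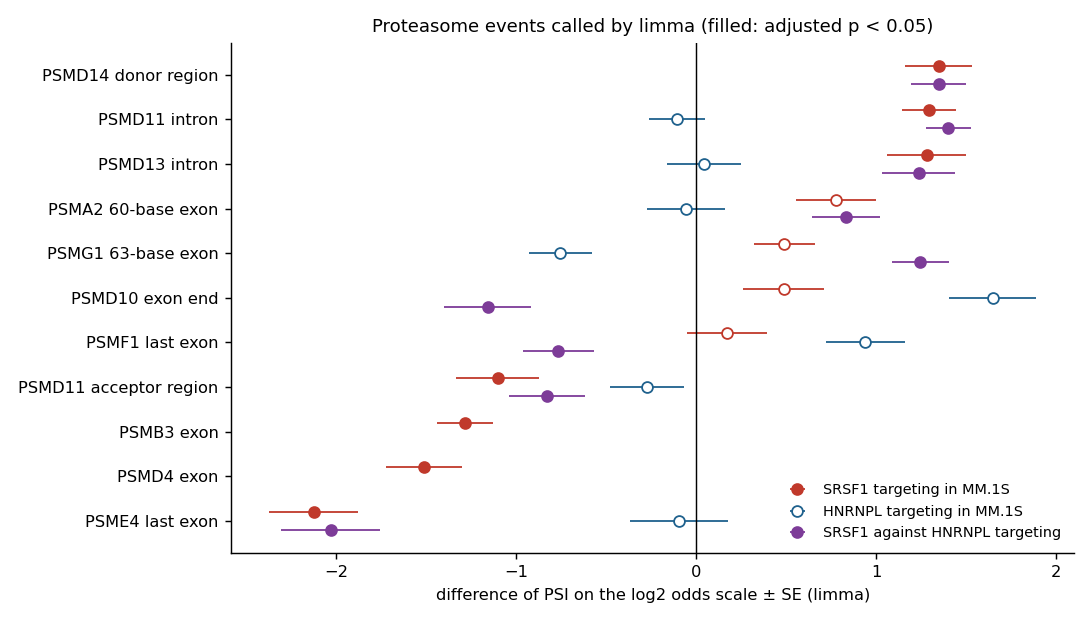
Log2 odds change of PSI (x axis) with bars of 1 SE from limma for 11 proteasome events, for sgSRSF1 against controls, sgHNRNPL against controls and sgSRSF1 against sgHNRNPL, filled where the adjusted p was under 0.05 and absent where an event was not tested. The PSMD11 intron lies at 1.30 for sgSRSF1 and the PSME4 segment at -2.13.

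Few member events could be compared between the lines, since an event had to be listed in both tables and vary once PSI was held between 1% and 99%. A PSMA4 intron under 1% listed for IL-6 and a PSME3 intron under 1% listed for ELL2 were left out by that limit. For IL-6 the PSMG1 and PSMB5 exons were tested, and limma called 0 of the 2, with 1 unadjusted p under 0.05, while 49.1% of all such events were called. The PSMG1 exon difference in INA-6 minus that in MM.1S was -6.12 points (log2 odds -0.34, SE 0.13), with an adjusted p by limma of 0.0618, and the PSMB5 exon gave 0.82. For POU2AF1 targeting the PSMB10 intron was the 1 event tested, and it differed by 3.53 points between the lines (log2 odds 1.67, SE 0.22, adjusted p by limma 0.000283, background 39.7%). For ELL2 targeting the 1 event tested, in PSME2, gave 0.306 by limma and no unadjusted p under 0.05, against 40.1% of all events called. The rows were chosen by their p within each line, which makes their spread look small, so these p values are not those of an unselected set.

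Over the 8 comparisons, 129 member events in 38 genes had a deposited p under 0.05 in at least 1. Of these, 88 had it in 1 comparison, 30 in 2, 5 in 3 and 6 in 4. Most of the 6 are listings of the single PSMC5 change described above. The same counts were not made over all events, so whether members recurred more often than other events was not tested. Comparisons that share EGFP controls are not independent in this count. By position, 54 of the 129 were introns between coding exons, 10 were introns outside the coding range, and 38 matched no annotated exon or intron exactly. Only whole exons and introns were matched. Alternative donor and acceptor segments, most of the 38, had no such match by their type, so they need not be unannotated.

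Genes that work with the proteasome but have other symbols included called events. Of 21 genes for other subunits, assembly factors and shuttles, 17 were listed after SRSF1 targeting, and 9 of their 87 events were higher and 11 lower with a deposited p under 0.05, against 16.4% of all events with such a p, 40.7% of them higher. ECPAS, a scaffold protein that binds the proteasome, included a 104-nt exon (chr9:111472897-111473000) at 38.3%, 37.2% and 34.9% in the controls and at 25.7%, 20.8% and 26.4% with sgSRSF1. The ECPAS exon went from 30.1%, 32.7% and 36.6% to 46.3%, 41.1% and 45.9% with IL-6 in MM.1S. ZFAND5, a zinc finger protein that activates the proteasome, included an exon at 58.2%, 51.5% and 55.7% in the controls and at 33.1%, 27.2% and 32.3% with sgSRSF1. NGLY1, the deglycosylase that acts on the proteasome gene activator NFE2L1, included an exon at 62.8%, 64.7% and 69.0% in the controls and at 55.3%, 54.2% and 47.2% with sgSRSF1. With sgPOU2AF1 in INA-6 the NGLY1 exon went from 75.9%, 81.6% and 80.1% to 69.6%, 70.5% and 66.8%. FAF2, a cofactor of the unfolding enzyme VCP, included an exon at 26.1% and 27.3% in the 2 MM.1S libraries without IL-6 that had a value and at 14.6%, 12.8% and 18.2% with it. Each was called and had no overlap between groups, which the choice by p nearly forces. After SRSF1 targeting 3 of the 87 events and 1 of 29 in regulator genes were called, against 5.75% of all events. With IL-6 in MM.1S, 2 of 17 events of the first list and 1 of 6 of the VCP complex were called (13.9% of all). With sgPOU2AF1 in INA-6, 1 of 8 listed regulator events was called, against 736 of all 11792 listed events. Of these 8, 2 were higher and 2 lower with a deposited p under 0.05. After HNRNPL targeting 0 of the 80, 35 and 69 events of these lists were called (1.81% of all). After SRSF1 targeting, 3 of 29 events in the 5 regulator genes were lower and 0 higher with a deposited p under 0.05, and of 68 events in genes of the VCP complex 1 was higher and 5 were lower, to be read against the same shares of all events.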

How the data were processed

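RNA was sequenced from 42 libraries, and the submitters' processing notes name STAR 2.7.10b, SAMtools 1.19.2 and GRCh38. The caller of splicing events and its gene models are not stated there or in the labels. Deposited by the authors were 8 tables, each with the percent spliced in (PSI) of 3 control and 3 treated libraries per event and a p-value per event. The file headers call that p-value an FDR, but an unequal-variance test of the listed PSI returned it within 1% for 100% of events, so it is unadjusted. Per-library depth and read counts are not in these tables, so the depth behind each PSI is unknown. In both INA-6 guide tables some columns are headed MM.1S; their mean PSI correlated across events at 0.995 and 0.997 with the INA-6 IL-6 table and at 0.951 and 0.953 with the MM.1S one, and they were read as INA-6.

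A call needed a deposited p under 0.05 and at least 10 points. Limma 3.58.1 (R 4.3.3) was fitted to the logit of PSI held between 1% and 99%, over all events of a table, with Benjamini-Hochberg adjustment; events with the same held value in every library were not tested. Both were tested on simulated data, with changes placed only in events of intermediate control PSI. Recovery of changes at low PSI, where most members lie, was therefore not tested. Other steps used Python 3.11.15 (matplotlib 3.10.9, pandas 2.3.3, scipy 1.17.1, numpy 2.4.6). Sequences came from GENCODE v29. The genes, lists and tests were chosen with earlier results of these data known. Named were the called events, up to 5 events per direction and comparison with the largest differences among those with a deposited p under 0.05, the limma calls, events with such a p in 3 or more comparisons, and the catalytic, immunoproteasome, activator and inhibitor genes; near-duplicate listings of a region were named once. Pathway genes outside the symbols were named where called, except for a result that is not reported here. The printed sequences were chosen after their values were seen.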

Additional observations from a re-analysis of the deposited data

Results flagged for a closer look

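The difference between the lines at the PSMB10 intron (chr16:67935479-67935581) stood out, since sgPOU2AF1 moved it in opposite directions. PSMB10 encodes an immunoproteasome subunit. Every sgPOU2AF1 library was below its controls in MM.1S and above them in INA-6, and the change in INA-6 minus that in MM.1S was 3.53 points (log2 odds 1.67, SE 0.22, adjusted p by limma 0.000283). Of all events tested in this contrast between the lines, 39.7% were called, so such a call is common among these selected events. The lines had different controls, and the event was listed in both tables because of its p in each.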

How the results depend on the processing

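No paired analysis was possible because the tables carry no replicate numbers for the values in them. With 3 libraries against 3, an exact permutation test of a single event cannot go below 0.10. Depth is unknown, so how far low PSI values rest on few reads cannot be judged. With a minimum of 5 points in place of 10, IL-6 gave 3 called members in MM.1S and 1 in INA-6, ELL2 gave 1 in INA-6, and SRSF1 and HNRNPL gave 6 and 6. In that order they were 13%, 6.25%, 5.56%, 15% and 35.3% of the members with a deposited p under 0.05. Of all events with such a p, 38.4%, 33.5%, 28.6%, 59.2% and 50.6% reached 5 points. With no minimum the called members were 23, 16, 23, 40, 10, 18, 40 and 17 in the order IL-6, POU2AF1 and ELL2 (MM.1S, then INA-6), SRSF1 and HNRNPL. With 20 points, and with Benjamini-Hochberg adjustment of the deposited p, SRSF1 and HNRNPL each had 0. In limma a minimum of 10 points left 1 of 123 members for SRSF1 (0.813%) and 2 of 112 for SRSF1 against HNRNPL (1.79%). Of all events it left 2059 of 50150 and 2575 of 43483. Events of mean PSI from 5% to 95% left 4 of 32 members for SRSF1 (12.5%, against 11.2% of all). Without the logit, the IL-6 difference between lines had 1 of 3 members, against 325 of 662 of all events. Leaving out each library in turn gave 0 to 1 calls for SRSF1 and for HNRNPL, 3 to 4 members by limma for SRSF1, 0 to 1 for HNRNPL and 5 to 9 for the direct contrast. These ranges cover fewer libraries, and no other cause was tested. Of 75 named events, 4 kept a p under 0.05 in all 6 leave-outs, 71 lost it in at least 1 and 0 reversed.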
